A study of Homo sapiens with 3 samples.

Results

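The genes described here are 4 sensors of double-stranded RNA (IFIH1, DHX58, EIF2AK2 and TLR3) and 5 transcription factors of the interferon response (STAT2, IRF1, IRF7, IRF9 and BATF2). They were chosen by gene name, with earlier results of these data known. All 9 were found among the 16662 genes of the deposited expression table. Their ratios beside those of all genes are therefore a description and not a test. All 9 also averaged 1 CPM or more across the 3 libraries, the filter used here, which kept 13879 genes. CPM are read counts scaled to the total of the library, here with a further scaling between libraries.

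RNA was sequenced from H1975, an established human lung adenocarcinoma line with mutant EGFR, after transfection of small interfering RNAs (siRNAs). One group received the control siRNA, called siNC, and the other groups received siHHLA3-1 or siHHLA3-3, the names of separate siRNAs that target HHLA3. All groups were transfected at about 70% confluency, spent 6 h in medium without serum and were cultured for a further 24 h in medium with 10% serum before RNA extraction. Each group is 1 library, and each library carries its own batch label, so the siRNA and the batch cannot be told apart, and no difference below has a replicate check.

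The libraries held 26950852 to 35069930 reads. HHLA3 itself stood at 5.99 CPM with siNC, 1.55 CPM with siHHLA3-1 and 0.735 CPM with siHHLA3-3, so the targeted gene was lowest in the libraries labelled as its knockdown. All 6 epithelial markers examined were listed (EPCAM, KRT7, KRT8, KRT18, KRT19 and CDH1), with a summed level of 5255 CPM with siNC, 4935 CPM with siHHLA3-1 and 4129 CPM with siHHLA3-3. Each of the 6 was below siNC with siHHLA3-3, KRT19 at 0.648-fold. Of 17 markers of leukocytes, plasmacytoid dendritic cells, fibroblasts and endothelium, 6 were listed. PTPRC, CD3E, LILRA4, CLEC4C, PDGFRB, DCN, PECAM1 and VWF were among those not listed. The summed levels over the libraries were 13.1 to 18.9 CPM for leukocytes and 1.32 to 1.83 CPM for plasmacytoid dendritic cells. The leukocyte marker ITGAX, the fibroblast marker COL1A1 and the endothelial marker CDH5 were each highest with siHHLA3-1. ITGAX stood at 2.93 CPM with siNC, 6.22 CPM with siHHLA3-1 and 2.13 CPM with siHHLA3-3. COL1A1 stood at 11.3, 24.5 and 10.9 CPM in the same order, and CDH5 at 7.95, 19.2 and 3.01 CPM. The part of these markers in the results below was not tested. In bulk RNA a change in the number of cells expressing a gene and a change in RNA per cell cannot be told apart.

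Double-stranded RNA in the cytoplasm is bound by the helicase MDA5, the product of IFIH1, and by its relative LGP2, the product of DHX58. MDA5 and RIG-I signal through the adaptor MAVS to kinases that activate IRF3 and IRF7, which switch on interferon genes. TLR3 detects such RNA in endosomes, and PKR, the product of EIF2AK2, stops translation by phosphorylating the initiation factor eIF2. Secreted interferon then acts through JAK kinases on STAT proteins, and STAT2 joins IRF9 in the complex ISGF3. ISGF3 binds the interferon-stimulated response element (ISRE) of its targets, among them several genes of the sensors and factors themselves. Another element, the gamma-activated site (GAS), mediates responses to interferon gamma, as in the promoter of IRF1.

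The promoter sequences of the genes were searched for both elements because the genes were all higher than with siNC, as given below. Promoters were taken from RefSeq (GRCh38.p14) as the 250 bases before and 50 after the start site, and 7 of the 9 genes were matched; DHX58 and IRF7 were not. The ISRE core was searched on both strands as GAAA, any 2 bases and GAAA again, and the GAS as TTCNNNGAA, which reads the same on both strands. Each line below gives 30 bases, 5′ to 3′ on the strand of the gene, with the match in capitals.

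EIF2AK2, ISRE, chr2:37156967-37156996, minus strand: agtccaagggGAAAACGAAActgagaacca

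IFIH1, ISRE near the start site, chr2:162318686-162318715, minus strand: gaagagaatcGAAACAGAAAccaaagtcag

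IFIH1, upstream ISRE, chr2:162318824-162318853, minus strand: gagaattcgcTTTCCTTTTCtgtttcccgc

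TLR3, ISRE, chr4:186069142-186069171, plus strand: caagctttacTTTCACTTTCgagagtgccg

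IRF1, GAS, chr5:132490879-132490908, minus strand: aacagcctgatTTCCCCGAAatgacggcac

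IRF9, GAS, chr14:24161191-24161220, plus strand: gaccacgtgatTTCTGGGAAaaggccctcc

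The ISRE core was present in 3 of the 7 promoters, all of them of sensors. It lay across the RefSeq start site in EIF2AK2 (bases -6 to 4) and TLR3 (bases -4 to 6). IFIH1 had 3 matches, at bases -21 to -12 and, overlapping each other, at -159 to -150 and -153 to -144. The core was found in 3.57% of all 35116 promoters and in 2.89% of the 14390 promoters of genes kept by the filter. The GAS letters were present in 3 of the 7 promoters, those of IRF1 (bases -124 to -116), IRF9 (-63 to -55) and TLR3 (2 matches), against 7.66% of all promoters and 6.25% of those of kept genes. STAT2 and BATF2 had neither in this window. A match describes the letters and is not evidence that a factor bound there. Because the genes were chosen by name with earlier results known, the counts of matches beside the shares over promoters do not test the set. All bases are counted from the RefSeq start site, which can differ from the GENCODE gene positions given below. The printed stretches of EIF2AK2 and IRF9 lie inside those gene positions.

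Among the sensors, IFIH1 was the one whose levels with the 2 siHHLA3 siRNAs lay closest together. IFIH1 (ENSG00000115267, chromosome 2, 162267079 to 162318703, minus strand; gene positions are from GENCODE 29 on GRCh38, while the submitters' processing notes name hg19) stood at 269 CPM with siNC, 416 CPM with siHHLA3-1 and 421 CPM with siHHLA3-3. Both knockdown libraries were thus high and the control low. The ratio to siNC was 1.55-fold with siHHLA3-1 (95% counting interval 1.51 to 1.59) and 1.57-fold with siHHLA3-3 (1.52 to 1.61). These intervals are exact binomial intervals of the counts and cover counting error only. Between the siHHLA3 libraries the ratio was 1.01 (0.988 to 1.04), an interval that includes 1.

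DHX58, whose product LGP2 lacks the signalling domains of MDA5 and modulates its activity, had a different pattern. It (ENSG00000108771, chromosome 17, 42101404 to 42112733, minus strand) stood at 67.4 CPM with siNC, 92.3 CPM with siHHLA3-1 and 69.6 CPM with siHHLA3-3. Only the siHHLA3-1 library was high. The ratio to siNC was 1.37-fold with siHHLA3-1 (1.30 to 1.44) and 1.03-fold with siHHLA3-3 (0.970 to 1.10), and the second interval includes 1.

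EIF2AK2 (ENSG00000055332, chromosome 2, 37099210 to 37157065, minus strand) gave the smallest ratio of the 9 genes with siHHLA3-1. Its level was 429 CPM with siNC, 532 CPM with siHHLA3-1 and 483 CPM with siHHLA3-3. The ratios to siNC were 1.24-fold (1.21 to 1.27) and 1.13-fold (1.10 to 1.15), so the order was siNC, siHHLA3-3, siHHLA3-1 with intervals that do not include 1. With 13162 to 18904 counts per library these intervals are narrow, and they say nothing of the spread between cultures.

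TLR3 (ENSG00000164342, chromosome 4, 186069152 to 186088069, plus strand) was the least abundant of the 9 genes. Its level was 1.68 CPM with siNC (54 counts), 4.48 CPM with siHHLA3-1 (159 counts) and 2.42 CPM with siHHLA3-3 (66 counts). The siHHLA3-1 library was high, and the siNC and siHHLA3-3 libraries were not separated by counting error. The ratio was 2.66-fold with siHHLA3-1 (1.94 to 3.69) and 1.44-fold with siHHLA3-3 (0.990 to 2.10). As log2 ratios of CPM + 1, which understate the differences of low genes, these were 1.03 and 0.35.

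**Figure D1:**
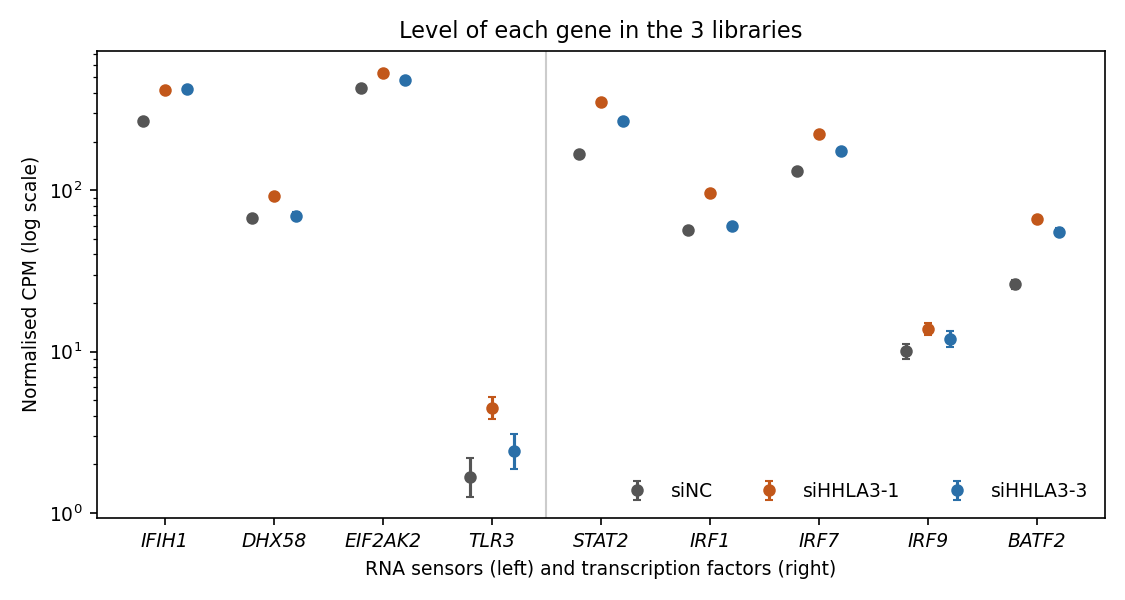
Normalised CPM on a log axis for each gene in the siNC (grey), siHHLA3-1 (orange) and siHHLA3-3 (blue) libraries; points are single libraries and bars are exact 95% Poisson counting intervals, smaller than the points for most genes. The siHHLA3-1 point is above the siNC point for all 9 genes, and only IFIH1 has siHHLA3-3 at 421 CPM above siHHLA3-1 at 416 CPM.

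Of the transcription factors, BATF2 and STAT2 had the largest ratios with both siRNAs. BATF2 (ENSG00000168062, chromosome 11, 64987943 to 64997045, minus strand) encodes a basic leucine zipper protein that is induced by interferon and partners with JUN proteins and IRFs. It stood at 26.1 CPM with siNC, 66.2 CPM with siHHLA3-1 and 55.4 CPM with siHHLA3-3. The ratios to siNC were 2.54-fold (2.34 to 2.75) and 2.12-fold (1.95 to 2.31). Their log2 ratios of 1.31 and 1.06 were higher than those of 99.8% and 99.3% of the genes kept by the filter.

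STAT2 (ENSG00000170581, chromosome 12, 56341597 to 56360155, minus strand), the subunit of ISGF3 that carries its activation domain, stood at 168 CPM with siNC, 354 CPM with siHHLA3-1 and 268 CPM with siHHLA3-3. All 3 libraries were separated beyond counting error. The ratios to siNC were 2.10-fold (2.04 to 2.17) and 1.59-fold (1.54 to 1.65), and that of siHHLA3-3 to siHHLA3-1 was 0.759 (0.737 to 0.781).

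IRF9 (ENSG00000213928, chromosome 14, 24161053 to 24166565, plus strand), the DNA-binding subunit of ISGF3, was far less abundant. Its level was 10.0 CPM with siNC, 13.8 CPM with siHHLA3-1 and 12.0 CPM with siHHLA3-3, with ratios to siNC of 1.38-fold (1.19 to 1.59) and 1.19-fold (1.02 to 1.40). In GENCODE 29, 1838 of its 3794 exonic bases (48.4%) are shared with the overlapping locus AL136295.5 on the same strand, which is not listed in the table used here. How reads in shared exons were assigned was not given in the sources used here, and the level of IRF9 is uncertain for that reason.

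IRF7 (ENSG00000185507, chromosome 11, 612553 to 615999, minus strand), the factor that amplifies interferon production once induced, stood at 131 CPM with siNC, 223 CPM with siHHLA3-1 and 176 CPM with siHHLA3-3. The ratios to siNC were 1.70-fold (1.64 to 1.76) and 1.34-fold (1.29 to 1.40). The level of IRF7 with siHHLA3-3 thus lay between those with siNC and siHHLA3-1, as for every gene of the set except IFIH1.

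IRF1 (ENSG00000125347, chromosome 5, 132481609 to 132490798, minus strand), a factor that responds to interferon gamma and to NF-kB, was high only with siHHLA3-1. Its level was 56.9 CPM with siNC, 96.5 CPM with siHHLA3-1 and 59.7 CPM with siHHLA3-3. The ratio was 1.70-fold with siHHLA3-1 (1.60 to 1.80) and 1.05-fold with siHHLA3-3 (0.981 to 1.12). The antisense transcript IRF1-AS1 (C5orf56 in GENCODE 29) shares 1716 of the 7799 exonic bases of IRF1 (22.0%) on the opposite strand. Its level was 7.33 CPM with siNC, 14.8 CPM with siHHLA3-1 and 6.80 CPM with siHHLA3-3, so it was also high only with siHHLA3-1. The use of strand in the counting was not given in the sources used here, and reads of the shared bases cannot be assigned to either gene.

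Levels can be compared between genes only per length, for which the deposited TPM were used. With siNC the order was IFIH1 (180 TPM), IRF7 (172), EIF2AK2 (133), STAT2 (92.9), DHX58 (60.3), BATF2 (31.7), IRF1 (15.9), IRF9 (9.58) and TLR3 (0.856 TPM). Every step in this order was larger than counting error, the narrowest being IFIH1 over IRF7 at 1.05 (1.01 to 1.09). IRF7 moved ahead of IFIH1 with siHHLA3-1, at 304 against 291 TPM, and STAT2 moved ahead of EIF2AK2, at 203 against 172 TPM. With siHHLA3-3 IFIH1 led again at 295 TPM, and EIF2AK2 and STAT2 were not separated by counting error (ratio 1.01, 0.983 to 1.04). BATF2 and DHX58 were likewise not separated with siHHLA3-1, where DHX58 over BATF2 was 1.03 (0.972 to 1.08). Over all 9 genes the TPM summed to 696 with siNC, 1184 with siHHLA3-1 and 1013 with siHHLA3-3.

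**Figure D2:**
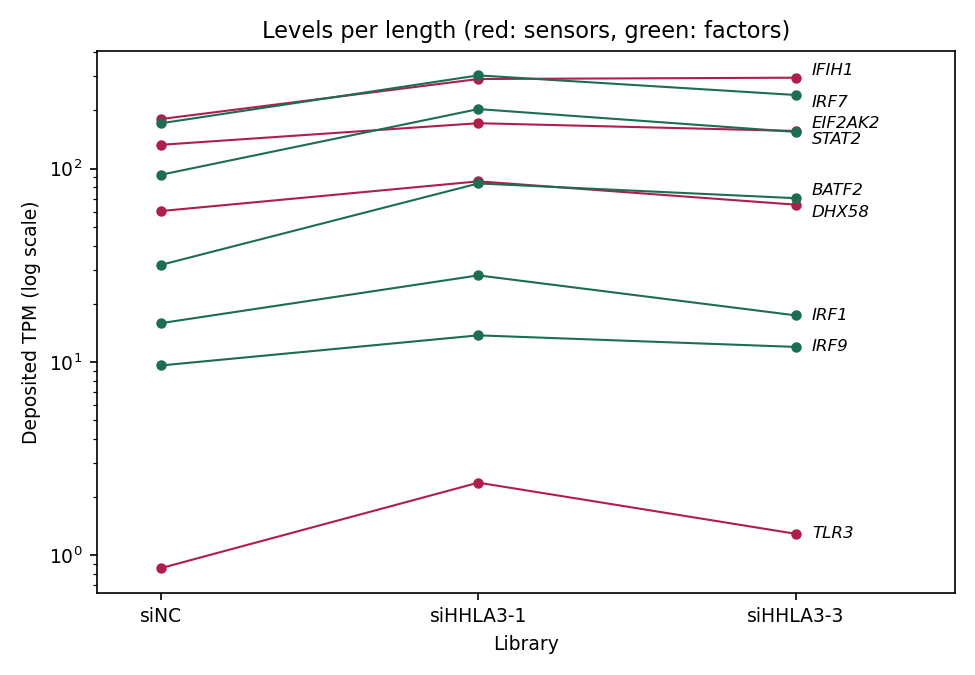
Deposited TPM on a log axis for each sensor (red) and factor (green) in the 3 libraries, with lines joining the values of 1 gene and no meaning in their slope beyond that. BATF2 goes from 31.7 TPM with siNC to near DHX58 in both knockdown libraries, while IRF9 and TLR3 are the lowest genes in every library.

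The lengths behind these TPM can be recovered from the deposited CPM and FPKM. For 8 of the 9 genes the recovered length was within 0.944 to 1.03 times the exonic length in GENCODE 29. For IRF1 it was 12265 bases against 7799, or 1.57 times. With CPM divided by the GENCODE length instead, IRF1 stood at 7.29, 12.4 and 7.65 CPM per kilobase, and the order of the 9 genes was unchanged in each of the 3 libraries.

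STAT2 and IRF9, which act in ISGF3, differed widely in level. Per length, STAT2 was 9.69 times IRF9 with siNC, 14.8 times with siHHLA3-1 and 13.0 times with siHHLA3-3. These ratios are uncertain because the level of IRF9 is, through the exons it shares with AL136295.5. Among the helicases, IFIH1 was 2.99, 3.38 and 4.54 times DHX58 per length.

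The comparison of siHHLA3-1 with siNC asks which genes differed with that siRNA. All 9 genes had a log2 ratio above 0, with a median of 0.75 (0.31 to 1.31), beside a median of -0.01 over the genes kept by the filter. BATF2, STAT2 and TLR3 were at least 2-fold higher by that measure, 3 of 9, where 0.973% of all kept genes were. Of the 9, 6 were at least 1.5-fold higher (BATF2, STAT2, TLR3, IRF7, IRF1 and IFIH1), against 5.03% of kept genes. The counting interval lay above 1 for 9 of 9, against 28.7% of kept genes. That share shows how readily counting error alone is exceeded at this depth. TLR3 was not among the 2-fold genes with the deposited TPM, which gave 2 of 9. At 0.856 TPM with siNC and 2.37 TPM with siHHLA3-1, the added 1 weighs heavily on its log2 ratio, which was 0.86. Because the 9 genes were chosen with earlier results known, the counts beside these shares, here and below, do not test the set.

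With siHHLA3-3 against siNC all 9 log2 ratios were again above 0, with a median of 0.35 (0.05 to 1.06), beside -0.01 over kept genes. BATF2 was the 1 gene of 9 at least 2-fold higher, against 0.807% of kept genes. BATF2, STAT2 and IFIH1 were at least 1.5-fold higher, 3 of 9 against 3.65%. The counting interval lay above 1 for 6 of 9, against 27.6%, and included 1 for DHX58, TLR3 and IRF1. Both comparisons share the siNC library, so their directions are not independent. None of the 9 genes was 1.5-fold lower in either comparison, as 3.34% of kept genes were with siHHLA3-1 and 5.57% with siHHLA3-3.

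**Figure D3:**
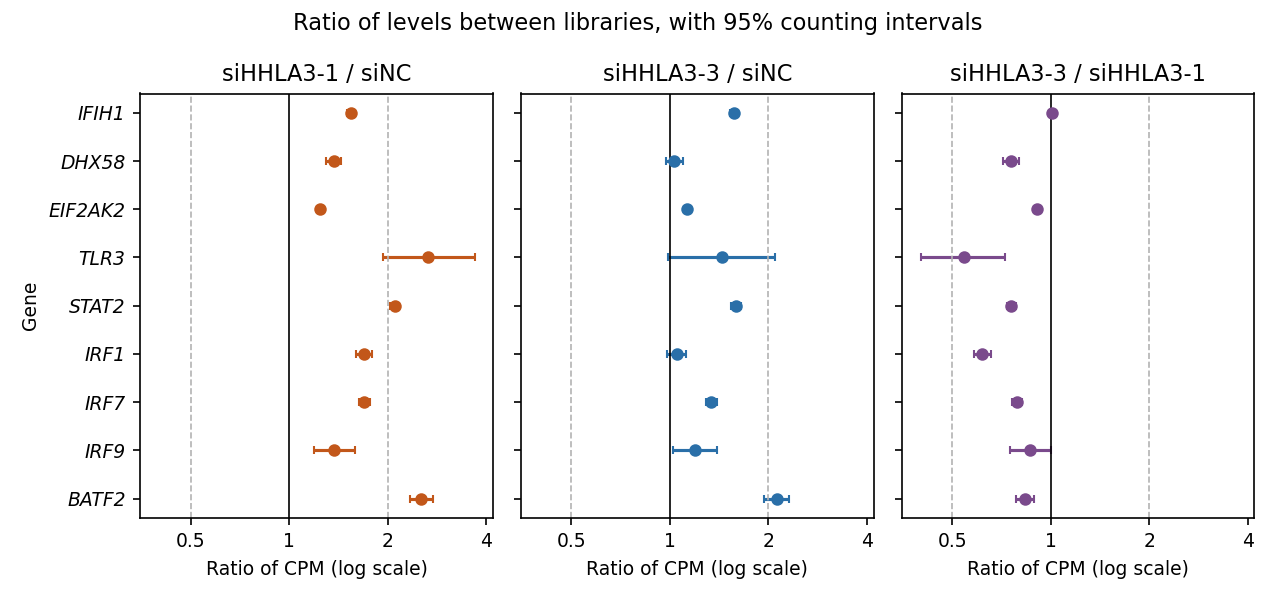
Ratio of normalised CPM on a log axis for each gene in the 3 comparisons; points are ratios of single libraries, bars are 95% counting intervals, and dashed lines mark 0.5 and 2. BATF2 is beyond 2 against siNC with both siRNAs, and DHX58 and IRF1 sit at 1.03 and 1.05 with siHHLA3-3.

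Set directly against each other, the siHHLA3 libraries differed for most of the genes. In siHHLA3-3 against siHHLA3-1, 8 of 9 had a log2 ratio below 0 and the median was -0.34, beside 0.00 over kept genes. The counting interval lay below 1 for 7 of 9, against 31.1% of kept genes; the exceptions were IFIH1 and IRF9 (0.868, 0.752 to 1.00). TLR3 and IRF1 were at least 1.5-fold lower, 2 of 9 against 7.82%, at 0.541 (0.400 to 0.726) and 0.619 (0.583 to 0.656). None of the 9 was 1.5-fold higher, as 4.40% of kept genes were. The sensors and the factors each held genes of both kinds. IFIH1, STAT2 and BATF2 were at least 1.5-fold above siNC in both knockdown libraries, while DHX58, TLR3 and IRF1 had a counting interval above 1 with siHHLA3-1 alone.

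**Figure D4:**
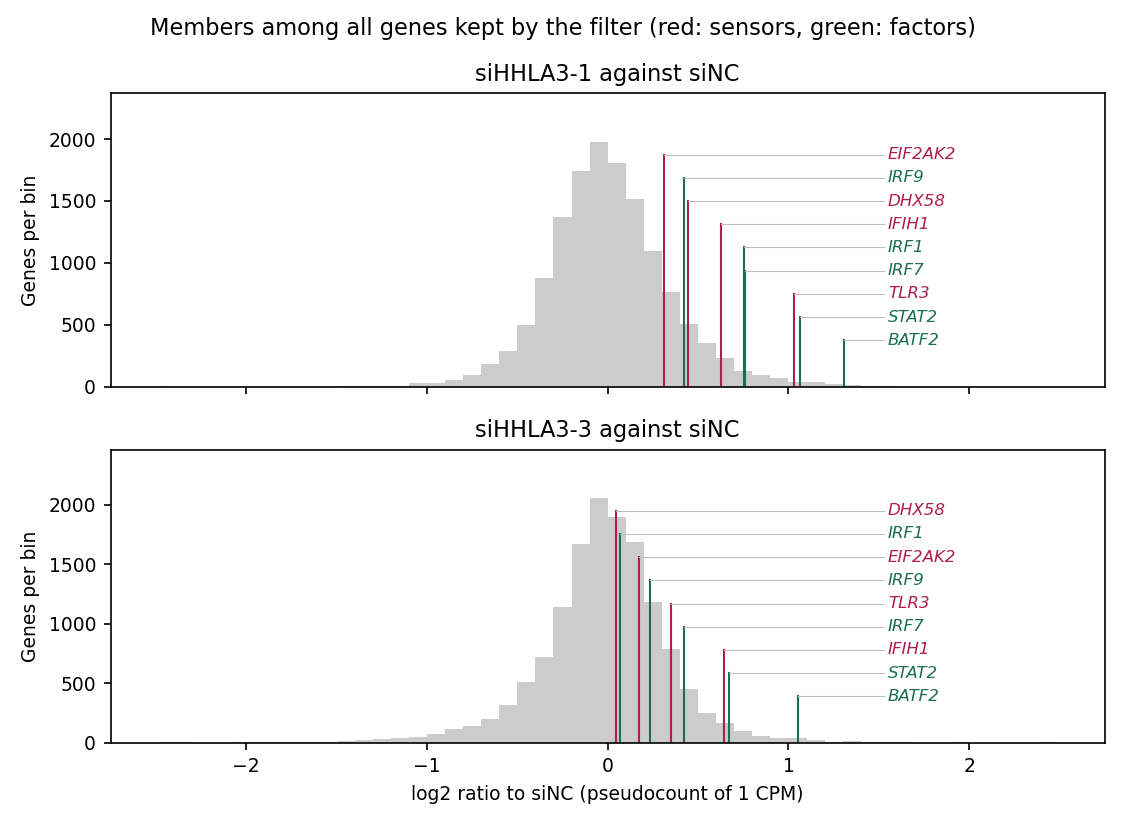
Grey bars count all 13879 kept genes in bins of the log2 ratio to siNC, with genes beyond the axis placed in the outermost bins; lines mark the 4 sensors (red) and the 5 factors (green), and their heights carry no value. The lines run from 0.31 for EIF2AK2 to 1.31 for BATF2 with siHHLA3-1 and from 0.05 for DHX58 to 1.06 for BATF2 with siHHLA3-3.

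The siHHLA3 libraries were also fitted as 2 samples of 1 group against the siNC library, although no label calls them replicates. With edgeR's quasi-likelihood test and a Benjamini-Hochberg adjusted p under 0.05, 0 of the 9 genes were called, and 1 of all 13879 genes (0.00721%). At an unadjusted p under 0.05 there were 3 of the 9 and 349 of all genes. DESeq2 called 0 of the 9 and 5 of all genes (0.0360%). With 1 residual degree of freedom, the fit takes the spread of the siNC library to be that of the others.

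Other genes of the pathway were taken from lists by role, 98 genes in all, of which 79 were measured above the filter. With siHHLA3-1, 0 of the 79 reached 2-fold higher, 9 reached 1.5-fold higher and 0 reached 1.5-fold lower, where 0.973%, 5.03% and 3.34% of all kept genes did. With siHHLA3-3, 1 reached 2-fold higher, 4 reached 1.5-fold higher and 4 reached 1.5-fold lower, counts near the shares of 0.807%, 3.65% and 5.57% over all kept genes. The median log2 ratios were 0.18 and 0.06, nearer to those of all kept genes than the medians of the 9 genes were. Both the 9 genes and these lists were chosen with earlier results of these data known, so the contrast is a description only.

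The interferon ligands had few counts. IFNB1, the gene of interferon beta, named here after its values were seen, had 10 counts with siNC, 45 with siHHLA3-1 and 23 with siHHLA3-3. It did not pass the filter. Its ratio was 4.06-fold with siHHLA3-1 (2.02 to 9.05) and 2.71-fold with siHHLA3-3 (1.24 to 6.38). As log2 ratios of CPM + 1 these were 0.79 and 0.49. IFNL2 (13, 30 and 20 counts) and IFNL3 (11, 36 and 19 counts), also named after their values were seen, did not pass the filter either. With siHHLA3-1 their ratios were 2.1-fold (1.1 to 4.4) and 3.0-fold (1.5 to 6.4). With siHHLA3-3 they were 1.8-fold and 2.0-fold, with intervals that include 1. IFNL1, the gene of interferon lambda 1, stood at 1.78, 3.07 and 2.83 CPM, with ratios of 1.73-fold (1.24 to 2.42) and 1.59-fold (1.11 to 2.28). IFNE had log2 ratios of 0.09 and -0.05. IFNA1, IFNA2 and IFNG were not listed in the table used here.

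Of the 7 measured receptors and JAK kinases, 6 had a counting interval above 1 with siHHLA3-1, and 3 lay above and 3 below with siHHLA3-3. Of all 13879 kept genes, 28.7% lay above with siHHLA3-1. With siHHLA3-3, 27.6% lay above and 4246 genes below, so the 3 and 3 are near the shares over all kept genes. The median log2 ratios were 0.30 and -0.14. None of the 7 was 1.5-fold higher or lower with either siRNA, a count that is also small at the shares of 5.03% higher and 3.34% lower (siHHLA3-1) and 3.65% and 5.57% (siHHLA3-3) over all kept genes. IFNLR1, the interferon lambda receptor chain, had log2 ratios of 0.38 and 0.35, IFNGR2 of 0.30 and 0.26, IFNGR1 of 0.18 and 0.19, and the kinase JAK2 of 0.42 and -0.16.

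Among 11 other measured nucleic acid sensors the medians were 0.18 and 0.18. In the order siNC, siHHLA3-1, siHHLA3-3, the DNA sensor AIM2 stood at 84.8, 151 and 129 CPM and the DNA sensor IFI16 at 521, 777 and 641 CPM. RIG-I, listed as DDX58, stood at 15.4, 24.3 and 22.7 CPM, with ratios of 1.57-fold (1.41 to 1.76) and 1.47-fold (1.30 to 1.66). The length recovered for DDX58 was 2.38 times its exonic length in GENCODE 29, so its level per length is not set beside that of IFIH1. The helicase DHX9 was below siNC in both, with log2 ratios of -0.45 and -0.20.

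The 18 adaptors and kinases had medians of 0.21 and 0.07. MAVS, the adaptor of MDA5, had log2 ratios of 0.02 and 0.10. MYD88, the adaptor of most Toll-like receptors, stood at 109, 185 and 113 CPM and was thus high only with siHHLA3-1. The ubiquitin ligase TRAF3 was high only with siHHLA3-3, at 140 CPM against 91.4 with siNC and 95.7 with siHHLA3-1. The ligase TRAF6 had ratios of 0.57 and 0.41 and the kinase IKBKE of 0.51 and 0.46 on the log2 scale.

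The 11 other measured IRF, STAT and BATF factors had medians of 0.38 and 0.10. IRF3, the partner of IRF7, had log2 ratios of 0.12 and 0.16. STAT3 had 0.62 and 0.10, STAT5A 0.54 and 0.21, STAT6 0.45 and 0.38, and BATF3, at 1.65 CPM with siNC, 0.38 and 0.52. IRF2, a factor that can repress the sites IRF1 activates, was named after its values were seen. It stood at 37.8 CPM with siNC, 59.2 CPM with siHHLA3-1 and 21.4 CPM with siHHLA3-3, so it lay on opposite sides of the control, at 1.56-fold (1.46 to 1.68) and 0.565-fold (0.511 to 0.624).

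Of 19 measured inhibitors, 2 were at least 1.5-fold higher and 0 lower with siHHLA3-1, and 1 higher and 1 lower with siHHLA3-3. These counts are close to what the shares over all kept genes give (5.03% higher and 3.34% lower with siHHLA3-1, 3.65% and 5.57% with siHHLA3-3). The deubiquitinase TNFAIP3, an NF-kB target, had log2 ratios of 0.77 and 0.86, and TRIM21, an interferon-inducible ubiquitin ligase, 0.72 and 0.43. CYLD had 0.56 and 0.28, and the IRF2 corepressor IRF2BP2 -0.27 and -0.55.

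The 11 genes that act with PKR or on eIF2 had medians of -0.03 and -0.11. PPP1R15A, the phosphatase subunit that reverses eIF2 phosphorylation, stood at 51.6, 79.1 and 151 CPM, highest with siHHLA3-3, unlike EIF2AK2. The heme-regulated eIF2 kinase EIF2AK1 stood at 247, 242 and 140 CPM. The PKR inhibitor DNAJC3 had log2 ratios of -0.32 and -0.21 and the kinase EIF2AK4 of -0.22 and -0.12.

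Of 32 measured interferon targets, 9 reached 2-fold and 17 reached 1.5-fold above siNC with siHHLA3-1, and 1 and 5 did with siHHLA3-3. Of all kept genes, 0.973% and 5.03% did so with siHHLA3-1, against 0.807% and 3.65% with siHHLA3-3. The medians were 0.62 and 0.27. SAMD9L had log2 ratios of 1.74 and 0.62, IFIT2 of 1.26 and 0.61, and RSAD2 of 1.35 and 1.52. TRIM22 had 13.8 CPM with siNC, 60.3 CPM with siHHLA3-1 and 15.9 CPM with siHHLA3-3. With siHHLA3-3, 1 of the 32 targets was at least 1.5-fold lower than siNC, against 5.57% of kept genes. It was GBP2, named after its values were seen, at 17.7 CPM with siNC, 39.7 CPM with siHHLA3-1 and 8.41 CPM with siHHLA3-3. Of the 32 targets, 25 were lower with siHHLA3-3 than with siHHLA3-1 and 7 were higher, where 6888 of all 13879 kept genes were lower.

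**Figure D5:**
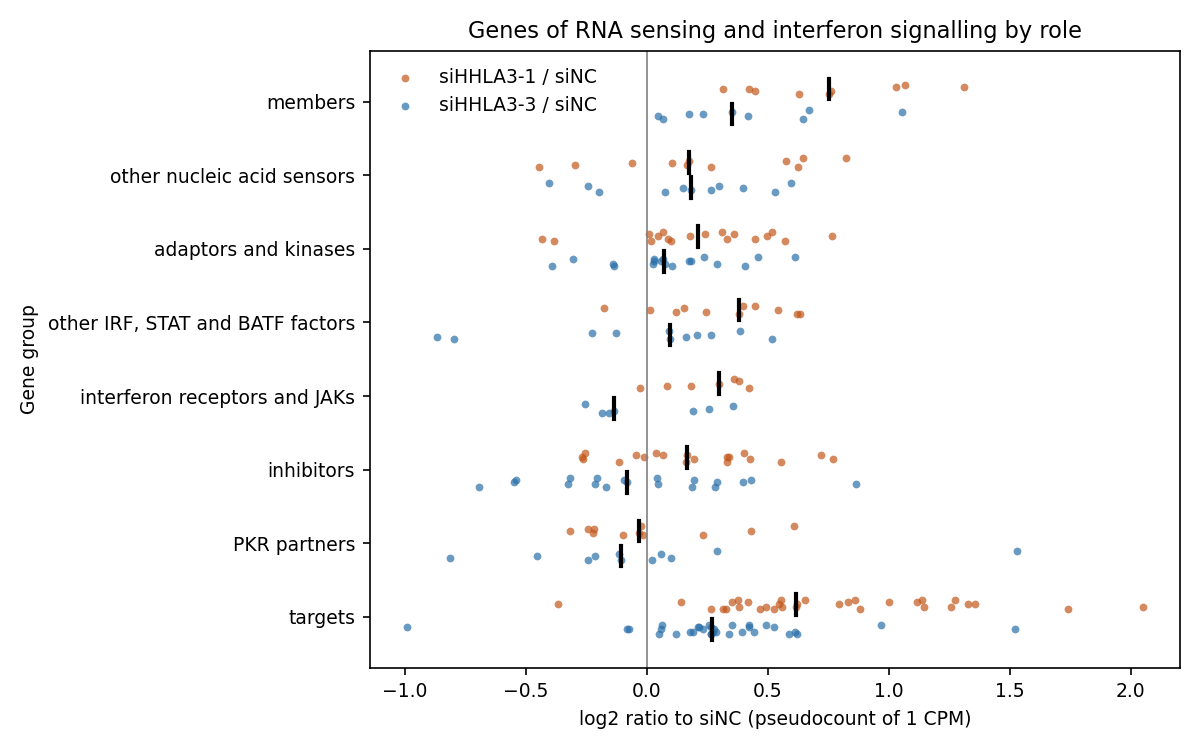
Log2 ratio to siNC for each measured gene of a role group, with siHHLA3-1 in orange, siHHLA3-3 in blue and the median of each as a black bar; points are spread vertically for legibility only, and the interferon ligands, of which 2 passed the filter, are not drawn. The medians of the 9 members are 0.75 and 0.35 and those of the 32 targets 0.62 and 0.27, while those of the PKR partners are -0.03 and -0.11.

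For the 3 genes with the largest mean ratio, the genes with the nearest pair of log2 ratios to siNC were sought. The search covered 11209 others with a mean of at least 5 CPM, by Euclidean distance in the plane of that pair. The nearest to BATF2 were DTX3, ARID3A and KDM6B, at distances of 0.168 to 0.171. The nearest to STAT2 were CYP1B1, at 0.0554, the locus ENSG00000251136 and TUFT1, at 0.0745. The nearest to TLR3 were ERV3-1, CLDN9 and TXNIP, at 0.0264 to 0.0480. TLR3 itself averaged 2.86 CPM, below the limit of 5 CPM, so the added 1 lowers its ratios more than those of these genes. With 3 libraries many genes lie close in this plane, and the distances are a description only.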

How the data were processed

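The authors deposited whole-number read counts per gene together with CPM, FPKM and TPM values for each library, per the file headers; the CPM are the counts scaled to the library total, and FPKM and TPM are further scaled by gene length. The submitters' processing notes name hg19 as the build, and Bowtie2, TopHat2, HISAT and HISAT2 as tools. The counting program, annotation and strand setting are not given in the sources used here. Library totals were recovered from the deposited counts and CPM, and 99.7% of reads were in listed genes. Counts were scaled with TMM factors (0.978, 1.01 and 1.01) from edgeR 4.0.16 in R 4.3.3. Ratios are log2 of (CPM + 1) over (CPM + 1); folds are plain ratios of the scaled CPM. Genes were counted at a ratio of 2 or 1.5. Intervals are exact 95% intervals, Poisson for levels and binomial for ratios, from scipy 1.17.1 in Python 3.11.15. Genes named beyond the 9 are IRF3, MAVS, DDX58 and up to 4 of each role group by size of the mean ratio; exceptions are stated, and 1 further gene of this rule is not reported here. The 9 genes and the lists were chosen with earlier results of these data known. On data simulated for siHHLA3-1 against siNC with counting error alone (13879 genes), the 2-fold rule found 100% of the 100 genes set 4-fold higher, 86% of the 100 set 4-fold lower and 0 unchanged genes. Alternatives were DESeq2 1.42.0 size factors, library totals, the deposited TPM or FPKM, no filter, a filter at 5 CPM, a pseudocount of 0.1, a 1.5-fold threshold, an added counting interval, and the fit of 2 samples against 1.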

Additional observations from a re-analysis of the deposited data

How the results depend on the processing

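The log2 ratios to siNC of all 9 genes stayed above 0 under each alternative run. Of 186 values of single genes under the alternatives, 169 stayed within the counting interval, 17 moved beyond it and 0 changed sign. The moves came with library totals, TPM or FPKM. A filter cannot change the ratio of a single gene. The values with no filter or a filter at 5 CPM, which are among the 169, therefore stayed by construction. The ratio of TLR3 with siHHLA3-1 was 0.43 with FPKM in place of 1.03, since the added 1 weighs more on its FPKM. With a 1.5-fold threshold the counts went from 3 to 6 of the 9 genes with siHHLA3-1 and from 1 to 3 with siHHLA3-3, and from 0 to 9 and from 1 to 4 of the pathway genes. At that threshold more genes pass by construction. The count of 3 with siHHLA3-1 was 2 with the deposited TPM or FPKM and with a mean of at least 5 CPM, which leaves out TLR3. The median log2 ratio ranged from 0.67 with FPKM to 0.80 with library totals for siHHLA3-1, and from 0.23 with FPKM to 0.42 with a pseudocount of 0.1 for siHHLA3-3. Scaling moved the median over all kept genes by less than 0.1. Of the 9 genes, TLR3 had the fewest counts, 54 to 159; of the ligands, IFNB1 had 10 to 45. No replicate could be left out, because each group is 1 library. No paired analysis was possible because the labels give no replicate numbers and each group has 1 library.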
